A study of Drosophila melanogaster with 4 samples.

Results

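The pair-rule genes *even skipped* (*eve*), *hairy* (*h*), *runt* (*run*), *odd skipped* (*odd*), *sloppy paired 1* and *2* (*slp1*, *slp2*) and *paired* (*prd*) were examined for occupancy of CBP, a histone acetyltransferase and transcriptional co-activator. Every CBP region overlapping 1 of 6 loci on release 5 of the *Drosophila melanogaster* genome was taken, which gave 16 of 1939 regions in *gd7* embryos and 14 of 3013 regions in wild-type embryos. The loci were *eve* on 2R from 5855000 to 5875000, *h* on 3L from 8650000 to 8695000, *run* on X from 20550000 to 20600000, *odd* on 2L from 3595000 to 3620000, *slp1* with *slp2* on 2L from 3815000 to 3845000, and *prd* on 2L from 12070000 to 12095000. They were set by gene and not by CBP signal, but with earlier results of these data known. Start sites of *h*, *odd*, *slp1*, *slp2* and *prd* inferred from the study's annotation of its peaks lay inside their loci. No start site of *eve* or *run* was at hand, so these loci rest on their stated positions.

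Embryos aged 2–4 h came from mothers homozygous for *gd7*, whose progeny lack Dorsal in the nucleus along the entire dorsoventral axis, or from *w1118* mothers, which served as wild type. The *gd7* genotype is therefore maternal, and the embryos consist of dorsal ectoderm in place of the wild-type mixture of mesoderm, neuroectoderm and dorsal ectoderm. For each genotype 1 CBP library, made from several pooled immunoprecipitations of whole embryos, was divided by 1 input library. There are no replicates, so no p-value is given, and intervals cover counting error only. In pooled whole embryos, a change in the number of cells that bind CBP at a site and a change in the amount bound per cell cannot be told apart. Read depth is not in the lists.

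Pair-rule genes act in the cascade that divides the anterior-posterior axis into segments. Maternal and gap gene proteins switch them on in stripes, often through separate enhancers that each drive 1 stripe or a few. *eve*, *h* and *run* are the classical members that read the gap proteins directly, and *odd*, *slp1*, *slp2* and *prd* also take much of their pattern from other pair-rule proteins. Their products are transcription factors that set the stripes of segment polarity genes such as *engrailed* and *wingless*. The stripes run around the embryo and are not the output of the Dorsal gradient, although several differ in strength between dorsal and ventral cells.

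Each region has 1 value, which is its log2 enrichment of ChIP over input averaged over its 5 highest consecutive points. Overlapping regions of the genotypes were joined into 20 sites, named here by locus and by letter along the chromosome. Of these, 10 were listed in both genotypes, 6 in *gd7* alone and 4 in wild type alone. CBP at the sites common to both was higher in *gd7* at 8 and lower at 2, and none of these 10 differed by more than 2-fold. A 2-fold fall could have been listed only at *run* B, *odd* C, *slp* B and *slp* E, which had room for falls of 1.11 to 1.66 on the log2 scale. The largest gains were at shared sites of *h* and *odd* away from their start sites, where a fall of more than 0.23 could not have been listed. *h*, *odd*, *prd* and *slp1* with *slp2* each had 1 site listed in *gd7* alone that was distal to the start sites of these genes. *eve* had CBP regions in *gd7* only, and *slp1* and *slp2* held both shared sites that were lower in *gd7*.

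**Figure D1:**
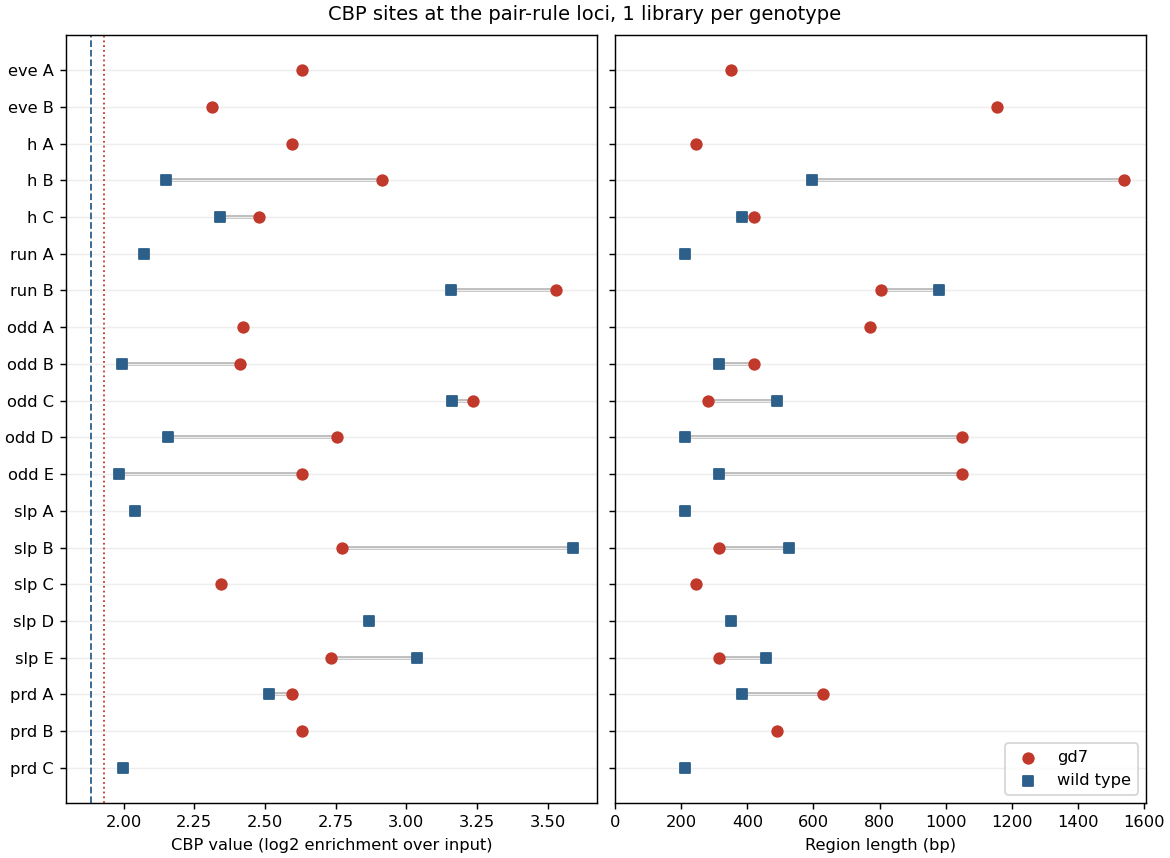
Value (left, log2 enrichment over input) and length (right, bp) of every CBP site at the 6 loci, with *gd7* as red circles and wild type as blue squares, joined where both lists hold the site. The vertical lines mark the lowest value of each list, dotted red at 1.93 for *gd7* and dashed blue at 1.88 for wild type, and sites with 1 symbol were listed in that genotype alone.

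Over the whole series, 40.4% of wild-type regions overlapped a *gd7* region and 62.7% of *gd7* regions overlapped a wild-type region. At the pair-rule loci 10 of 16 *gd7* regions were shared (62.5%, 95% Wilson interval 38.6 to 81.5%), against 10 of 14 wild-type regions (71.4%, 45.4 to 88.3%). The wild-type interval lay above the 40.4% of its list, but whether it did so varied with the setting. Neither share is read as a departure from its list. With loci widened by 10 kb 10 of 18 wild-type regions were shared (55.6%, 33.7 to 75.4%), and with an overlap of 50% of the shorter region 9 of 14 were (64.3%, 38.8 to 83.7%), both with an interval that includes the list's level. With peak centres within 200 bp 7 of 14 were (26.8 to 73.2%), next to 31.9%, which that interval also includes. At a value of at least 2.5, 5 of 6 wild-type regions were shared (43.6 to 97.0%), next to 37.9% of the list. With the wild-type list shortened to the length of the *gd7* list, 6 of 7 were (48.7 to 97.4%), next to 48.4%. Both of these intervals lay above the list's level. With that shortened list, 37.5% of *gd7* regions at the loci were shared (18.5 to 61.4%), next to 49.5% of the whole *gd7* list. The 6 regions in *gd7* alone compare with 37.3% of the *gd7* list and the 4 in wild type alone with 59.6% of the wild-type list. Among all 1217 shared wild-type regions 53.2% were higher in *gd7* by any amount, 10.2% exceeded 2-fold upward and 5.92% downward. At the pair-rule loci 8 of the 10 shared sites were higher and 0 exceeded 2-fold in either direction. Their median difference was 0.25 (95% binomial interval -0.30 to 0.65), next to 0.06 over all shared regions. With 10 sites no departure from the series can be claimed. Most of the 10 had too low a wild-type value for a 2-fold fall to be listed. At 1.5-fold the counts were 3 sites higher and 1 lower, next to 24.1% and 18.4% of all shared regions. The other 10 sites have no value in 1 genotype, so a large difference there is not excluded by these counts.

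The median value at the loci was 2.63 in *gd7* (95% binomial interval of the median 2.42 to 2.77, 16 regions) and 2.25 in wild type (2.00 to 3.16, 14 regions). Over the whole lists the medians were 2.53 in *gd7* and 2.40 in wild type. The *gd7* regions at the loci ranged from 2.31 to 3.53 and the wild-type regions from 1.98 to 3.59, so the genotypes overlapped over most of their range. None of the *gd7* regions lay near the cut-off of its list, the lowest standing above 30.6% of it, whereas the lowest wild-type region stood above 6.31% of its list. CBP regions were dense at these loci, at 8.21 per 100 kb in *gd7* and 7.18 in wild type, next to 1.66 and 2.53 over the genome up to the last region of each arm.

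**Figure D2:**
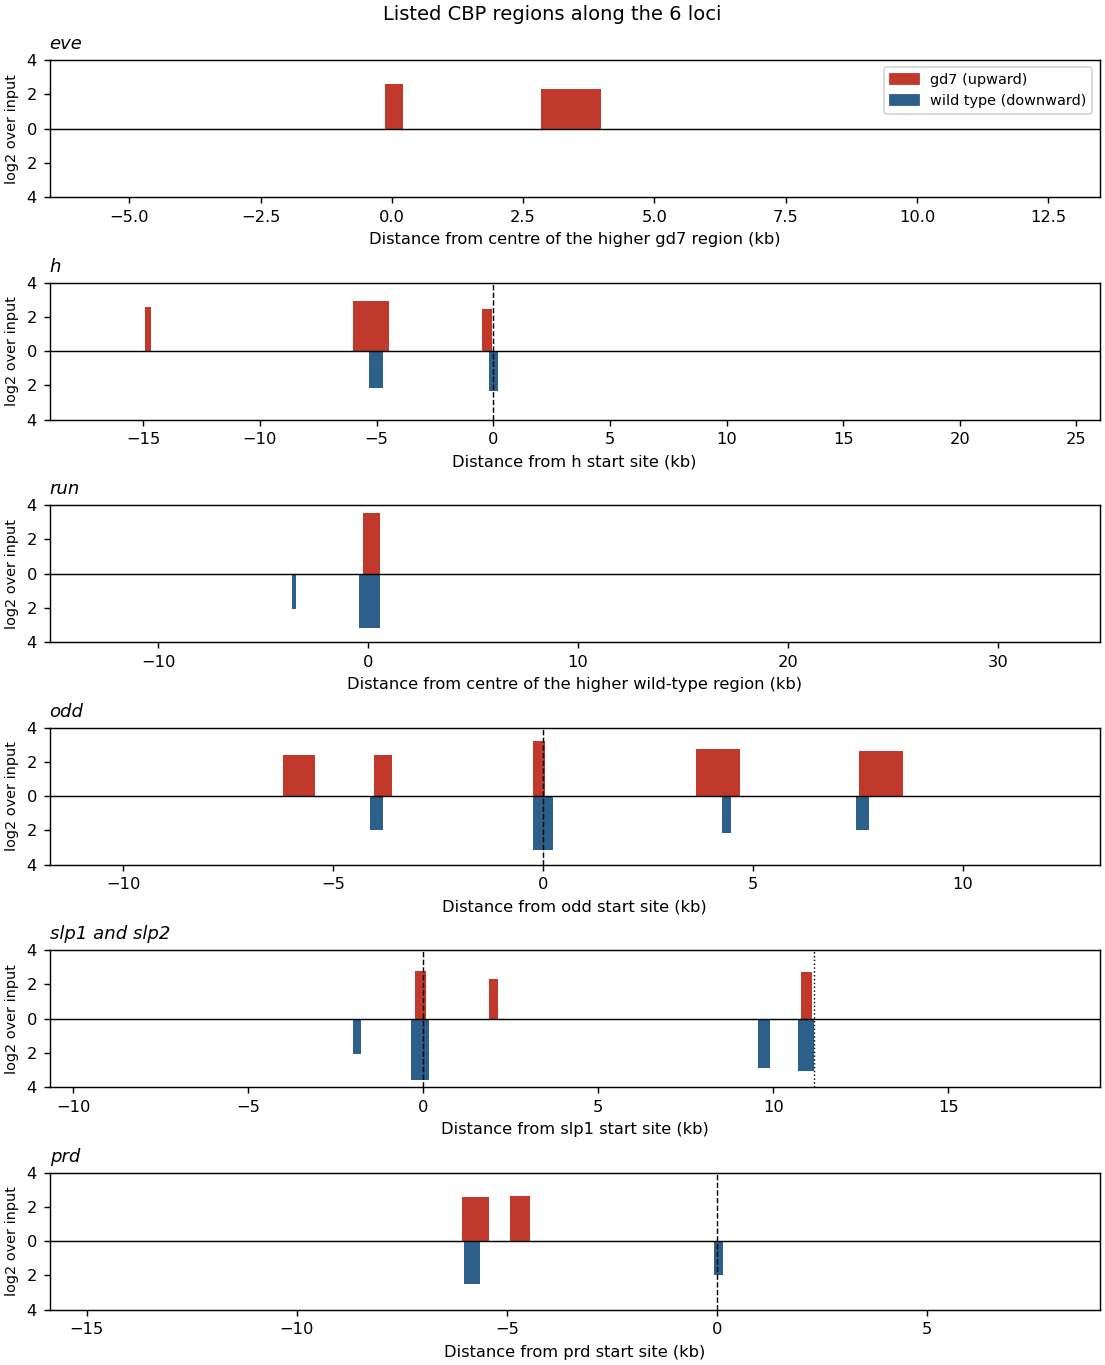
Listed CBP regions along the 6 loci, with the log2 enrichment of *gd7* drawn upward in red and that of wild type downward in blue, and distance in kb on the x axis. Dashed lines mark the start site of *h*, *odd*, *slp1* or *prd*, midway between the 2 possible sites for h-RA and *prd*, and the dotted line that of *slp2*. The *eve* and *run* panels are centred on their strongest region in *gd7* and wild type in turn.

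*h* encodes a basic helix-loop-helix repressor that acts with Groucho, and most of its stripes are driven by separate enhancers spread over many kilobases. Site *h* B, on 3L from 8662990 to 8664530 in *gd7* and from 8663690 to 8664285 in wild type, had a value of 2.91 in *gd7* and 2.15 in wild type. The difference of 0.76 on the log2 scale, or 1.70-fold, was the largest gain at the 6 loci, and the *gd7* region was 1540 bp long against 595 bp. Its centres lay only 35 bp apart, so the same position was occupied in both genotypes. The distance to the start site of transcript h-RA was 4750 or 4840 bp in *gd7* and 4785 or 4875 bp in wild type, since the annotation leaves 2 possible sites for that transcript. Another transcript, h-RB, has possible start sites at 8659501 and 8668859, from which *h* B lay 4714 or 4644 bp away in *gd7* and 4679 bp in wild type, so the site is distal in each case.

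Near the h-RA start site the listed values of *h* differed little. Site *h* C had 2.48 in *gd7* and 2.34 in wild type, a difference of 0.14. The *gd7* region, from 8668520 to 8668940, and the wild-type region, from 8668835 to 8669220, shared 106 bp, and their centres were 280 bp apart. The wild-type region covered both possible h-RA start sites, at 8668965 and 8669055, whereas the *gd7* region ended below them. The values thus belong to partly different positions. One of the 2 possible h-RB start sites, at 8668859, lay inside both regions, 129 bp from the centre in *gd7* and 151 bp in wild type. Farther out, site *h* A was listed in *gd7* alone, from 8654100 to 8654345 with 2.59. It lay 14690 or 14780 bp from the h-RA start site and 5226 or 14584 bp from that of h-RB. The nearest wild-type region was 8785 bp away and outside the locus. *h* thus had 3 regions covering 2205 bp in *gd7* and 2 regions covering 980 bp in wild type.

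*eve* encodes a homeodomain repressor needed for odd-numbered parasegments, and its stripe enhancers lie on both sides of the gene. The wild-type list held no CBP region in the *eve* locus, whereas the *gd7* list held 2. Site *eve* A, on 2R from 5861380 to 5861730, had a value of 2.63 in *gd7*, and *eve* B, from 5864355 to 5865510, had 2.31. Both were well inside the *gd7* list, above 56.8% and 30.6% of its regions. The nearest wild-type regions were 13930 bp below *eve* A, with 2.19 and *CG12130* as the nearest gene, and 10920 bp above *eve* B, with 2.34 at *TER94*. The wild-type value at *eve* is not listed and lay under 1.88 or in a stretch too short to be called. Whether either region lies at the start site or at an enhancer was not determined, as release 5 positions of *eve* were not used here.

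*run* encodes the founding Runt-domain transcription factor, which activates some targets and represses others. Its main region was the strongest of all 16 in *gd7*. Site *run* B, on X from 20564915 to 20565720 in *gd7* and from 20564740 to 20565720 in wild type, had 3.53 in *gd7* and 3.16 in wild type, a difference of 0.37 or 1.29-fold. It stood above 92.8% of the *gd7* list and 88.2% of the wild-type list, and was 805 bp long in *gd7* and 980 bp in wild type. A further region, *run* A, from 20561520 to 20561730, was listed in wild type alone with 2.07, close to the cut-off. It could have fallen by no more than 0.14 and still have been listed in *gd7*.

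*odd* encodes a zinc finger repressor and had 5 CBP sites, as many as *slp1* with *slp2*, spread over both sides of its start site. Site *odd* C, at the start site on 2L from 3606505 to 3606785 in *gd7* and to 3606995 in wild type, had 3.23 in *gd7* and 3.16 in wild type, which differ by 0.07. Of the 4 sites around it, 3 were higher in *gd7* and 1 was listed there alone. *odd* A was listed in *gd7* alone with 2.42, at 3600555 to 3601325, with its centre 5843 bp off. *odd* B had 2.41 in *gd7* and 2.00 in wild type, at 3813 and 4058 bp from the start site.

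On the other side of *odd*, site *odd* D had 2.76 in *gd7* and 2.16 in wild type, at 4272 and 4342 bp, and *odd* E had 2.63 in *gd7* and 1.98 in wild type. The differences were 0.60 and 0.65 on the log2 scale, or 1.51-fold and 1.57-fold. Both were far broader in *gd7*, at 1050 bp each against 210 bp for *odd* D and 315 bp for *odd* E. *odd* E lay 8052 bp from the *odd* start site in *gd7* and 7667 bp in wild type, and the study's annotation gives *Dot* as its nearest gene, so it may not belong to *odd*. Over the locus the covered length was 3570 bp in *gd7* with a mean value of 2.69, against 1330 bp with a mean of 2.32 in wild type.

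*slp1* and *slp2* are neighbouring genes for related forkhead-domain factors with much the same stripes, which mark the posterior part of each parasegment. At the start site of *slp1*, site *slp* B had 2.77 in *gd7* and 3.59 in wild type, a difference of -0.82 or 0.568-fold. It was the strongest wild-type region at any of the 6 loci, above 95.4% of its list, and in *gd7* it stood above 65.9%. Its centre was the same in both genotypes, 110 bp from the start site at 3825680 on 2L. At the start site of *slp2*, site *slp* E had 2.73 in *gd7* and 3.04 in wild type, a difference of -0.30, with centres 247 and 142 bp from the start site at 3836842. Both regions were shorter in *gd7*, at 315 bp each, against 525 bp for *slp* B and 455 bp for *slp* E.

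Between and beside the 2 start sites the lists differed. Site *slp* D, 1437 bp from the *slp2* start site (3835230 to 3835580), was listed in wild type alone with 2.87, above 78.5% of its list. It is the only site listed in wild type alone that stood well clear of the cut-off, as a fall of up to 0.94 would have kept it in the *gd7* list unless the region became too short. *slp* A, 1860 bp from the *slp1* start site, was also in wild type alone, with 2.04 and room for a fall of only 0.11. In *gd7* alone, *slp* C lay from 3827565 to 3827810, 1990 bp from the *slp1* start site on its other side, with 2.34. The locus was covered over 875 bp in *gd7* with a mean value of 2.62, and over 1540 bp in wild type with a mean of 2.88.

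*prd* encodes a transcription factor with a paired domain and a homeodomain that activates segment polarity genes. Its start site carried CBP in wild type alone, at *prd* C, from 12085815 to 12086025 with 2.00, where a fall of 0.07 would have removed it from the *gd7* list. Site *prd* A was nearly the same in both genotypes, with 2.59 in *gd7* and 2.51 in wild type and centres 35 bp apart. It lay 5682 or 5868 bp from the *prd* start site in *gd7* and is nearest to *CG14947* in the study's annotation. Beside it, *prd* B was listed in *gd7* alone, from 12080950 to 12081440 with 2.63, which is 700 bp from the nearest wild-type region.

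Start-site regions were then set against distal ones at *h*, *odd*, *slp1*, *slp2* and *prd*. A start-site region had its centre within 500 bp of an inferred start site of these genes. The shared distal sites also lay more than 500 bp from any gene's start site in the study's annotation of the wild-type regions. All 5 shared distal sites were higher in *gd7*, by 0.08 to 0.76 with a median of 0.60, and all 5 were longer in *gd7*. The 4 shared start-site regions differed by -0.82 to 0.14 with a median of -0.11, and 2 were higher in *gd7*. Class went together with the wild-type value, which was 1.98 to 2.51 at the distal sites and 2.34 to 3.59 at the start-site regions. At *odd* E, *odd* B, *h* B and *odd* D a fall of more than 0.23 would have taken the site off the *gd7* list. Class and wild-type value therefore cannot be told apart at these sites. On 2L, 2R and 3L together, class was set by the nearest start site of any gene. There 65.0% of 386 shared distal regions were higher in *gd7*, with a median difference of 0.26 (95% binomial interval 0.19 to 0.36). Among 310 shared start-site regions 45.2% were higher, and the median was -0.07 (-0.16 to 0.00). The pair-rule sites therefore followed the same order as the whole series, and with 9 sites no departure from it can be claimed. Of the wild-type regions at these genes, 5 of 7 distal and 4 of 5 start-site regions overlapped a *gd7* region, next to 50.7% and 33.0% on 2L, 2R and 3L. A further 4 distal sites were listed in *gd7* alone and 2 in wild type alone, while the only start-site region in 1 list alone was *prd* C in wild type. Of those in *gd7* alone, *h* A and *prd* B were measured only from the start sites of *h* and *prd*, so other genes' start sites there were not checked.

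**Figure D3:**
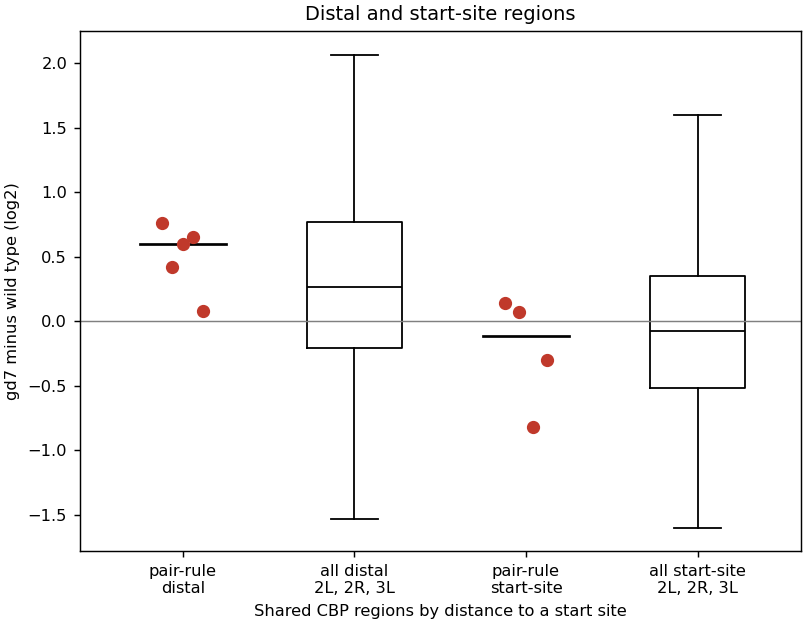
Difference of *gd7* minus wild type (log2) at shared CBP regions by class, with the pair-rule sites as red points and their median as a line, next to boxes for all shared regions on 2L, 2R and 3L, pair-rule sites included (median, quartiles, whiskers to 1.5 times the interquartile range). The 5 distal pair-rule sites lie above 0 and the 4 start-site regions on either side of it.

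The difference also moved with the wild-type value over the whole series. A region near the cut-off cannot fall far and stay listed. The 4 shared sites with the lowest wild-type values, *odd* E, *odd* B, *h* B and *odd* D, from 1.98 to 2.16, had the 4 largest gains. They could have fallen by no more than 0.05, 0.07, 0.22 and 0.23. Among all 163 shared regions in that range of wild-type values 92.6% were higher in *gd7*, with a median difference of 0.50 (95% binomial interval 0.39 to 0.59). The 4 gains, from 0.42 to 0.76, lay on either side of this median. The part of the cut-off in these gains was not tested.

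At the other end, 4 shared sites had wild-type values of 3.04 or more, namely *slp* E, *run* B, *odd* C and *slp* B. Of all 344 shared regions at or above 3.04 only 19.2% were higher in *gd7*, and their median difference was -0.59 (95% binomial interval -0.68 to -0.51). *run* B, at 0.37, and *odd* C, at 0.07, were among the few that were higher, whereas *slp* B, at -0.82, and *slp* E, at -0.30, lay on the side of the majority. These value ranges were chosen after the values were seen.

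**Figure D4:**
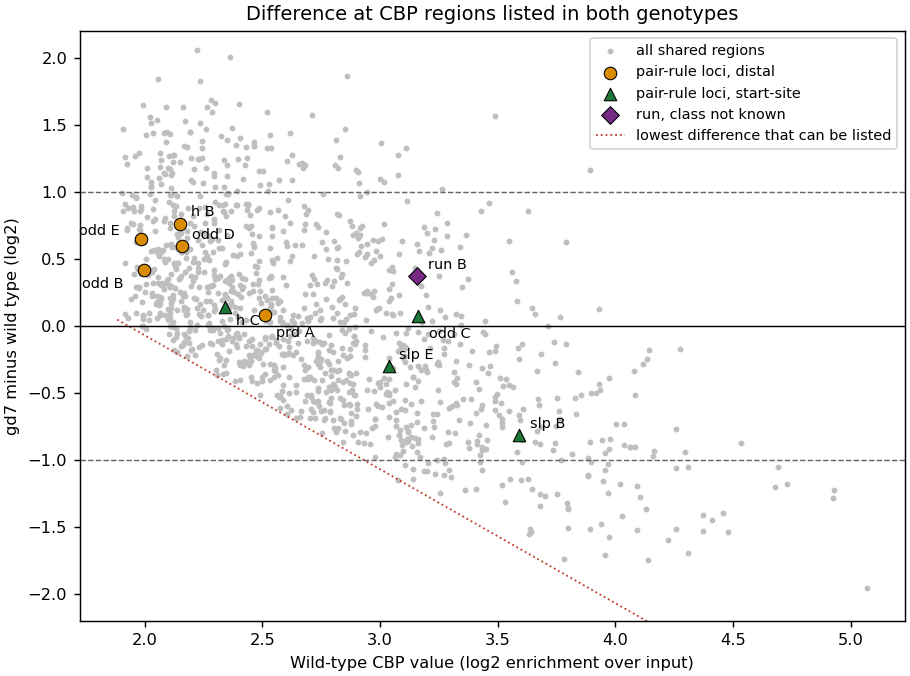
Difference of *gd7* minus wild type (log2) against the wild-type value for all shared CBP regions in grey, with the 10 pair-rule sites marked as distal, start-site or, for *run* B, of unknown class. The dashed lines mark 2-fold, the dotted line marks the lowest difference that both lists can show, and the 4 largest gains sit at the left edge at wild-type values from 1.98 to 2.16.

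The length of the CBP regions was also compared. A region is a stretch that passed the cut-off of its list, so its length is not independent of its value. In *gd7*, 4 of 16 regions reached 1 kb (*eve* B, *h* B, *odd* D and *odd* E), next to 13.6% of the *gd7* list, and in wild type 0 of 14 did, next to 6.80% of that list. At 3 shared sites, *h* B, *odd* D and *odd* E, the *gd7* region was more than 2 times as long as the wild-type one, which held for 17.4% of all shared regions. These were also the 3 shared sites with the largest gains in value. In all, 6 shared sites were longer and 4 shorter in *gd7*, next to 47.1% longer over the series. The shorter ones were *run* B and the start-site regions of *odd*, *slp1* and *slp2*, so the stretch around these start sites was narrower in *gd7* whether its value was higher or lower. Together the regions covered 10080 bp in *gd7* with a mean value of 2.69, and 5635 bp in wild type with a mean of 2.504.

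The rule takes only what lies inside the loci. Just outside, a wild-type region nearest to *CG6712* began 1350 bp beyond the *prd* locus with 1.98, and the *TER94* region began 1430 bp beyond that of *eve* with 2.34. The nearest *gd7* regions outside were 2865 bp from the *h* locus, with 2.06, and 5585 bp from the *run* locus, with 2.22.

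Of 17 other segmentation genes, covering gap, further pair-rule, *odd*-family and segment polarity genes, 12 were the nearest gene of at least 1 wild-type region in the study's annotation, which was at hand for 2L, 2R, 3L and part of 3R. They had 23 wild-type regions, of which 17 (73.9%) overlapped a *gd7* region, next to 40.4% of all wild-type regions. Of these 17, 8 had a higher value in *gd7*, next to 53.2% of all shared regions. The median difference was -0.28 (95% binomial interval -0.71 to 0.56). The 2-fold limit was passed upward by 1 region and downward by 3, next to 10.2% and 5.92% of all shared regions. *ftz*, a pair-rule gene inside the Antennapedia complex, had 5 wild-type regions, and its 4 shared ones differed by -0.71 to 0.85. At *opa*, a pair-rule gene for a zinc finger activator, the start-site region had 2.46 in *gd7* and 3.94 in wild type, whereas a distal region had 3.38 in *gd7* and 2.21 in wild type. The *odd*-family genes *sob* and *drm*, which lie beside *odd*, had -0.28 and -0.45 at their shared start-site regions. At *ptc*, the gene of the Hedgehog receptor, the start-site region differed by -1.03 and a distal region by 0.63. *en* had 1 shared region, at -0.75, and a start-site region listed in wild type alone with 3.41. *Kr*, a gap gene, had 2 shared regions, at -0.57 and 0.14. Regions of *drm*, with 2.60, and of *ptc*, with 2.89, were also listed in wild type alone. Such regions have no difference, so the 2-fold counts leave them out.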

How the data were processed

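CBP-bound regions were analysed from 1 CBP and 1 input library per genotype. The authors mapped SOLiD reads to release 5, divided ChIP by input on a log2 scale, smoothed the ratio, joined the top 5% of values into regions and deposited 1 list per genotype with a log2 value per region, without normalizing the genotypes to each other. The shortest listed region is 210 bp. The deposited log2 value is the enrichment minus a constant, found by matching peak centres with the study's table of peak values (170 of 1939 *gd7* and 1999 of 3013 wild-type regions). The constant, 1.93 in *gd7* and 1.88 in wild type with a largest deviation of 5e-06, was added back, so the zero of the scale rests on that table. The same table, which was held only in part, gave nearest genes and, with the peak centres, the start sites of *h*, *odd*, *slp1*, *slp2* and *prd*.

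Regions sharing 1 bp or more were counted as overlapping in Python 3.11.15 (numpy 2.4.6, pandas 2.3.3), and the counting was tested on simulated data and checked with bedtools 2.31.1. Intervals were computed in scipy 1.17.1. Figures were drawn in matplotlib 3.10.9. The difference is the highest overlapping *gd7* value minus the wild-type value, with limits of 2-fold. All 7 gene names matched a release 6 gene table, *h* through an older symbol, which served for names only. Named genes are the 7 members, genes nearest to regions at or just outside the loci, and from the list of other segmentation genes the 6 with most regions, plus *sob*. The loci and gene lists were chosen with earlier results of these data known. Alternatives changed the cut-off, overlap rule, locus extent, scale, centring, limits and start-site distance. Promoter and enhancer sequences were not analysed here.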

Additional observations from a re-analysis of the deposited data

How the results depend on the processing

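Of 56 values recomputed under 12 alternatives, 47 stayed within their interval or within 1.5 times the count and none changed sign. Some of the 47 had little room to move. Counting per *gd7* region used the same pairs, start-site distances of 250 and 1000 bp left the classes of the wild-type regions unchanged, and taking peak centres inside the loci kept the same number of regions. Leaving out a replicate was not possible with 1 library per genotype. No paired analysis was possible because each genotype has 1 library and no test was made. At a value of at least 2.5 in both lists, 11 *gd7* regions and 6 wild-type regions remained at the loci, since 8 of 14 wild-type regions there lie below that value. With loci widened by 10 kb, *gd7* and wild type had 18 regions each, so *gd7* no longer had more, and 8 regions were listed in *gd7* alone and 8 in wild type alone, against 6 and 4 in the loci as given. With peak centres within 200 bp in place of overlap, 7 wild-type regions had no *gd7* region and 5 shared sites were higher in *gd7*, because *h* C, *odd* B and *odd* E have centres farther apart. The median difference at shared sites was then 0.08, against 0.25 in the main setting. Centred on the median of all shared regions it was 0.20. With the wild-type list shortened to the length of the *gd7* list, 37.5% of *gd7* regions were shared, next to 49.5% over the whole list. Of the wild-type regions left at the loci 85.7% were shared, next to 48.4% of the shortened list. As deposited, without the constants, the medians at the loci were 0.70 in *gd7* and 0.37 in wild type, and 8 of 10 shared sites remained higher in *gd7*. With a limit of 1.5-fold, 3 shared sites (*h* B, *odd* D and *odd* E) were higher and 1 (*slp* B) was lower in *gd7*, next to 24.1% and 18.4% of all shared regions. The value of a region listed in 1 genotype alone is unknown in the other, and no difference has a replicate check.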
